A study of Homo sapiens with 6 samples.

Results

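The proteasome genes measured here are the 44 identifiers PSMA, PSMB, PSMC, PSMD, PSME, PSMF or PSMG followed by a number that the deposited tables listed at all 3 times, of 11886 genes listed at all 3. They comprise 7 PSMA, 8 PSMB, 6 PSMC, 14 PSMD, 4 PSME, 1 PSMF and 4 PSMG genes, spread over 17 chromosomes. No identifier of this form was listed at only some times. PSMA8, PSMB8, PSMB9 and PSMB11 had no value at any time in the data used here and could not be analysed. The libraries came from U2OS, an established human osteosarcoma cell line, transfected with siRNA against the repressor E2F7 (siE2F7) or with non-target control siRNA (siNT). Both arms shared a block with hydroxyurea, an inhibitor of nucleotide synthesis, at 4 mM for 24 h, which was then washed out. They were taken at 0 h (G1/S transition), 3 h (S phase) and 12 h (G2/M boundary), with 1 library for each arm and time, 6 in all. The series asks which genes depend on E2F7 through the cell cycle. Every library thus carries the drug block and comes from 1 cancer line.

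The proteasome degrades proteins that carry ubiquitin chains, and its timed removal of cyclins and replication inhibitors drives the cell cycle forward. Alpha (PSMA) and beta (PSMB) subunits form the barrel-shaped core particle, whose active sites are inside. The regulatory particle caps the core: a ring of ATPases (PSMC) unfolds the substrate, and non-ATPase subunits (PSMD) bind and remove ubiquitin. Activators (PSME) are alternative caps, and PSMG proteins, with a few PSMD proteins, are chaperones that build the complex and leave it. Cells that need more proteasome are known to raise most subunit genes together through the transcription factor NFE2L1, which binds antioxidant response elements in their promoters.

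Levels are FPKM, read fragments per transcript length and per library size, so they can be set side by side between genes. Listed FPKM summed to between 351305 and 375954 per library, and the tables give no counts, so the counting error behind a value is unknown. E2F7 itself stood at 20.3, 29.4 and 16.6 FPKM in siNT at 0, 3 and 12 h and at 9.48, 10.6 and 5.52 FPKM in siE2F7, lower at each time (log2 ratio -1.37 ± 0.10, SE; limma, adjusted p = 0.001). Of the mesenchymal and bone markers 7 of 8 were measured, led by VIM at a mean of 806 FPKM, while of 5 blood markers 1 was measured (LAPTM5, 1.66 FPKM) and of 3 endothelial markers none. In bulk RNA, fewer cells of a type and less RNA per cell cannot be told apart. Epithelial markers numbered 3 of 5, and of these KRT8 and KRT18, keratin genes listed at 1 shared locus, fell by 0.39 ± 0.08 and 0.34 ± 0.09 on the log2 scale (adjusted p = 0.023 and 0.044, up to 0.0907 and 0.226 when 1 time was left out, which ended both calls), while EPCAM had a mean of 2.84 FPKM. The summed level of the epithelial list was 239 to 299 FPKM in siNT and 200.2 to 222 FPKM in siE2F7, and its part in the results on the members was not tested. ALPL, a bone marker, also fell, by 0.37 ± 0.10 (adjusted p = 0.043, up to 0.135 when 1 time was left out, which ended the call). No label tells whether the libraries are from separate cultures, and the p-values cover only the spread among these 6 libraries.

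Proteasome transcripts were mostly alike in the 2 arms, and PSMB5 and PSMC5 were the exceptions. These 2 genes fell in siE2F7, 0 of 44 rose and 42 did not pass the test (limma over all genes, with time as a block and Benjamini-Hochberg adjustment at 0.05). The 2 calls are 4.55% of the members, beside 13.9% of all genes tested, of which 7.13% were called lower and 6.76% higher. The median log2 ratio of siE2F7 over siNT was -0.01 over the 44 genes and -0.03 over all genes tested. Both calls rest on the pairing of the arms by time, and without the time block the adjusted p was 0.055 for PSMB5 and 0.125 for PSMC5. All log2 values here are of FPKM plus 0.1, a scale that understates changes of low genes.

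The stretches below are the 250 bases before the start of PSMB5 and PSMC5, shown because these are the genes that moved. They are RefSeq promoter windows of GRCh38.p14, written 5′ to 3′ on the strand of the gene, PSMB5 on the minus strand (chr14:23035221-23035470) and PSMC5 on the plus strand (chr17:63827181-63827430). Each gene has a second RefSeq start further into the gene, whose window is not printed. Capitals mark CCAAT, the one motif of those searched that was found in these stretches.
PSMB5: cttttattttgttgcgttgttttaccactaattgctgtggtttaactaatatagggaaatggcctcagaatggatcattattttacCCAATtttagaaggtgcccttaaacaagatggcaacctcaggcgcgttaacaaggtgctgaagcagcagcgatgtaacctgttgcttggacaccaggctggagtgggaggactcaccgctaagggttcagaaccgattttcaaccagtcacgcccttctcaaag
PSMC5: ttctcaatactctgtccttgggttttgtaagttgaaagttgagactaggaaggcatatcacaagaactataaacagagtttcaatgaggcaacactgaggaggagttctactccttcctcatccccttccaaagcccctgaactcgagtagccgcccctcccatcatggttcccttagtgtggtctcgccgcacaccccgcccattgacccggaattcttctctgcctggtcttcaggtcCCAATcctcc

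PSMB5 encodes the core subunit with chymotrypsin-like activity, the main target of the drug bortezomib (hg19, chromosome 14, 23495060 to 23504429). Its transcript stood at 104, 83.6 and 99.8 FPKM in siNT at 0, 3 and 12 h and at 55.4, 47.1 and 57.2 FPKM in siE2F7. Every siE2F7 library was below every siNT library. The log2 ratio was -0.84 ± 0.06 (SE; limma, adjusted p = 0.001), which is 0.557 of the siNT level, and it was -0.90, -0.83 and -0.80 at the single times. Among the 847 genes called lower it had the 112th largest fall.

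PSMB6 and PSMB7 encode the other two catalytic subunits, of caspase-like and trypsin-like activity. PSMB6 was at 83.9, 62.9 and 73.8 FPKM in siNT and at 73.5, 73.9 and 72.7 FPKM in siE2F7 (log2 ratio 0.01 ± 0.09). PSMB7 was at 72.4, 61.1 and 72.2 FPKM in siNT and at 66.1, 69.1 and 68.4 FPKM in siE2F7 (-0.01 ± 0.08). The arms overlapped for both genes, and their 95% limma intervals ran from -0.20 to 0.21 and from -0.19 to 0.17. PSMB5 was thus the most abundant of the 3 catalytic transcripts in all 3 siNT libraries and the least abundant in all 3 siE2F7 libraries. Set over the mean of PSMB6 and PSMB7, its level was 1.33, 1.35 and 1.37 in siNT and 0.794, 0.658 and 0.81 in siE2F7.

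PSMC5 encodes 1 of the 6 ATPases of the base (hg19, chromosome 17, 61896793 to 61909387). Its transcript stood at 179, 154 and 168 FPKM in siNT and at 129, 111 and 126 FPKM in siE2F7 at 0, 3 and 12 h, again with no overlap. The log2 ratio was -0.45 ± 0.06 (SE; limma, adjusted p = 0.0052), or 0.732 of the siNT level, and -0.47, -0.47 and -0.41 at the single times. Among the 847 genes called lower PSMC5 had the 474th largest fall. The tables give PSMC5 and FTSJ3, a gene of ribosome assembly, the same locus, so that reads of the 2 genes may have been split between them. FTSJ3 was at 39.6, 35.4 and 41.5 FPKM in siNT and at 39.0, 33.9 and 41.3 FPKM in siE2F7, with a log2 ratio of -0.03 ± 0.06.

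The other ATPase genes did not pass. PSMC3 was at 134, 116 and 120 FPKM in siNT and at 144, 134 and 134 FPKM in siE2F7, higher at each time but overlapping between arms (log2 ratio 0.16 ± 0.06, adjusted p = 0.15). PSMC1, PSMC2, PSMC4 and PSMC6 had log2 ratios of 0.04, 0.00, -0.07 and -0.05. PSMC5 had the highest level of the 6 in every siNT library, and PSMC3 in every siE2F7 library, with PSMC5 next. Over the mean of the other 5 ATPase genes, PSMC5 stood at 1.98, 1.99 and 2.05 in siNT and at 1.48, 1.32 and 1.496 in siE2F7.

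**Figure D1:**
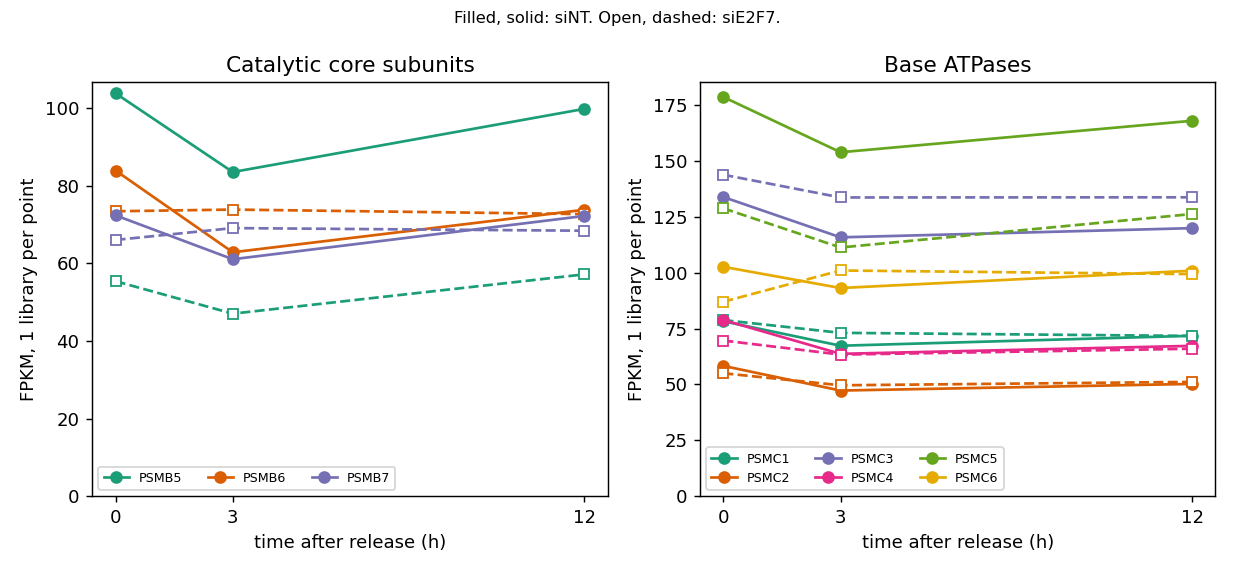
FPKM against hours after release for the 3 catalytic core genes (left) and the 6 ATPase genes (right), with 1 library per point, solid lines and filled symbols for siNT and dashed lines and open symbols for siE2F7. PSMB5 lies above PSMB6 and PSMB7 in siNT and below them in siE2F7, and PSMC5 lies above PSMC3 in siNT and below it in siE2F7.

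Of the 7 alpha subunit genes, whose products form the outer rings and gate of the core, none passed. PSMA1 had the highest log2 ratio of all 44 genes, 0.21 ± 0.09 (SE; limma, adjusted p = 0.15). It was at 160, 124 and 146 FPKM in siNT and at 163, 167 and 166 FPKM in siE2F7. Its 3 siE2F7 values lay just above its highest siNT value, the only member of which this was true, beside 6.88% of all genes tested. With quantile normalization PSMA1 was called higher (0.23, adjusted p = 0.035). The other 6 alpha genes had log2 ratios between -0.08 (PSMA3) and 0.09 (PSMA4).

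The 4 structural beta genes did not pass either, with log2 ratios of -0.05 for PSMB1, 0.02 for PSMB2, 0.07 for PSMB3 and -0.01 for PSMB4. PSMB10 encodes an inducible catalytic subunit of the immunoproteasome, the form that interferon raises for antigen processing. It was at 16.9, 13.2 and 19.3 FPKM in siNT and at 14.8, 12.9 and 13.8 FPKM in siE2F7, with overlapping arms and a log2 ratio of -0.23 ± 0.10 (adjusted p = 0.16). At 12 h alone the ratio was -0.48. Of 16 genes of antigen processing and interferon signalling 7 were measured, and 0 rose and 0 fell by limma, with 1 at an unadjusted p under 0.05, beside 6.76%, 7.13% and 30.2% of all genes tested. STAT2, a transducer of interferon signals, had the lowest adjusted p, 0.053, and a log2 ratio of -0.32. Their median log2 ratio was -0.08.

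The 14 PSMD genes include the scaffold and ubiquitin receptors of the base, the lid and 3 chaperones of base assembly. None passed, and 11 had log2 ratios within 0.1 of zero. PSMD1 and PSMD2, the scaffold proteins, and PSMD4, a ubiquitin receptor, had log2 ratios of 0.03, -0.01 and 0.03. PSMD14, the deubiquitinase of the lid, was at 98.1, 98.2 and 86.2 FPKM in siNT and at 101, 104 and 94.6 FPKM in siE2F7 (0.09 ± 0.06). PSMD11, another lid subunit, was between 72.4 and 76.3 FPKM in the 6 libraries.

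PSMD7 was the lid gene nearest to the threshold. It stood at 69.3, 58.7 and 79.3 FPKM in siNT and at 59.0, 52.6 and 65.2 FPKM in siE2F7, lower at each time with overlapping arms (log2 ratio -0.22 ± 0.06, SE; limma, adjusted p = 0.059). It was called lower with quantile normalization (-0.23, adjusted p = 0.033) and when genes with overlapping loci were left out (adjusted p = 0.044). Of the base chaperones, PSMD10 (gankyrin, also known as an oncoprotein) and PSMD5 were lower at each time, with log2 ratios of -0.23 ± 0.07 and -0.22 ± 0.07 (adjusted p = 0.08 and 0.081). PSMD10 was at 19.05, 12.6 and 16.1 FPKM in siNT and at 15.4, 10.99 and 14.1 FPKM in siE2F7. The third chaperone, PSMD9, had a log2 ratio of 0.02.

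None of the 4 activator genes passed. PSME3, whose product is the nuclear activator, was at 72.4, 63.0 and 74.3 FPKM in siNT and at 67.1, 58.3 and 64.5 FPKM in siE2F7 (log2 ratio -0.14 ± 0.06, adjusted p = 0.18). PSME1 and PSME2, the interferon-inducible pair, had log2 ratios of 0.01 and -0.16. PSME2 differed in sign between times, with -0.38 at 0 h and 0.10 at 3 h. PSME4 also did, with 0.18 at 0 h and -0.22 at 3 h. The inhibitor gene PSMF1 had a median of 20.8 FPKM over the 6 libraries and a log2 ratio of -0.05.

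The 4 PSMG genes, whose products pair up to build the alpha ring, did not pass. PSMG1 was at 29.5, 22.03 and 22.4 FPKM in siNT and at 20.3, 22.3 and 16.6 FPKM in siE2F7, lower at 0 and 12 h and level at 3 h. Its log2 ratio was -0.32 ± 0.11 (SE; limma, adjusted p = 0.10), and without the libraries of 3 h it was -0.48 and called (adjusted p = 0.036). PSMG2, the partner of PSMG1, was higher at each time, with 96.4, 104 and 101 FPKM in siNT and 103, 121 and 109 FPKM in siE2F7 (0.14 ± 0.06, adjusted p = 0.19). PSMG3 had single-time log2 ratios of -0.46, 0.07 and -0.24, and PSMG4, the scarcest member, of 0.57, -0.12 and 0.07.

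For the 42 genes that did not pass, the intervals limit how large a mean difference over the 3 times could have been missed. They set no limit on a difference at a single time. Their log2 ratios ran from -0.32 (PSMG1) to 0.21 (PSMA1), and 30 of them were within 0.1 of zero. All 42 of the 95% limma intervals, which are not adjusted for the number of genes, lay inside a 1.5-fold difference in either direction, between 0.671 and 1.41 of the siNT level. By unadjusted p, 7 of the 42 were under 0.05 (limma), 5 lower and 2 higher, which with PSMB5 and PSMC5 makes 9 of 44 beside 30.2% of all genes tested. Counting by sign, 11 of 44 were lower at all 3 times and 4 were higher at all 3, beside 28.6% and 22.8% of all genes tested. Only PSMB5 and PSMC5 had all siE2F7 values under all siNT values, beside 8.76% of all genes tested.

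**Figure D2:**
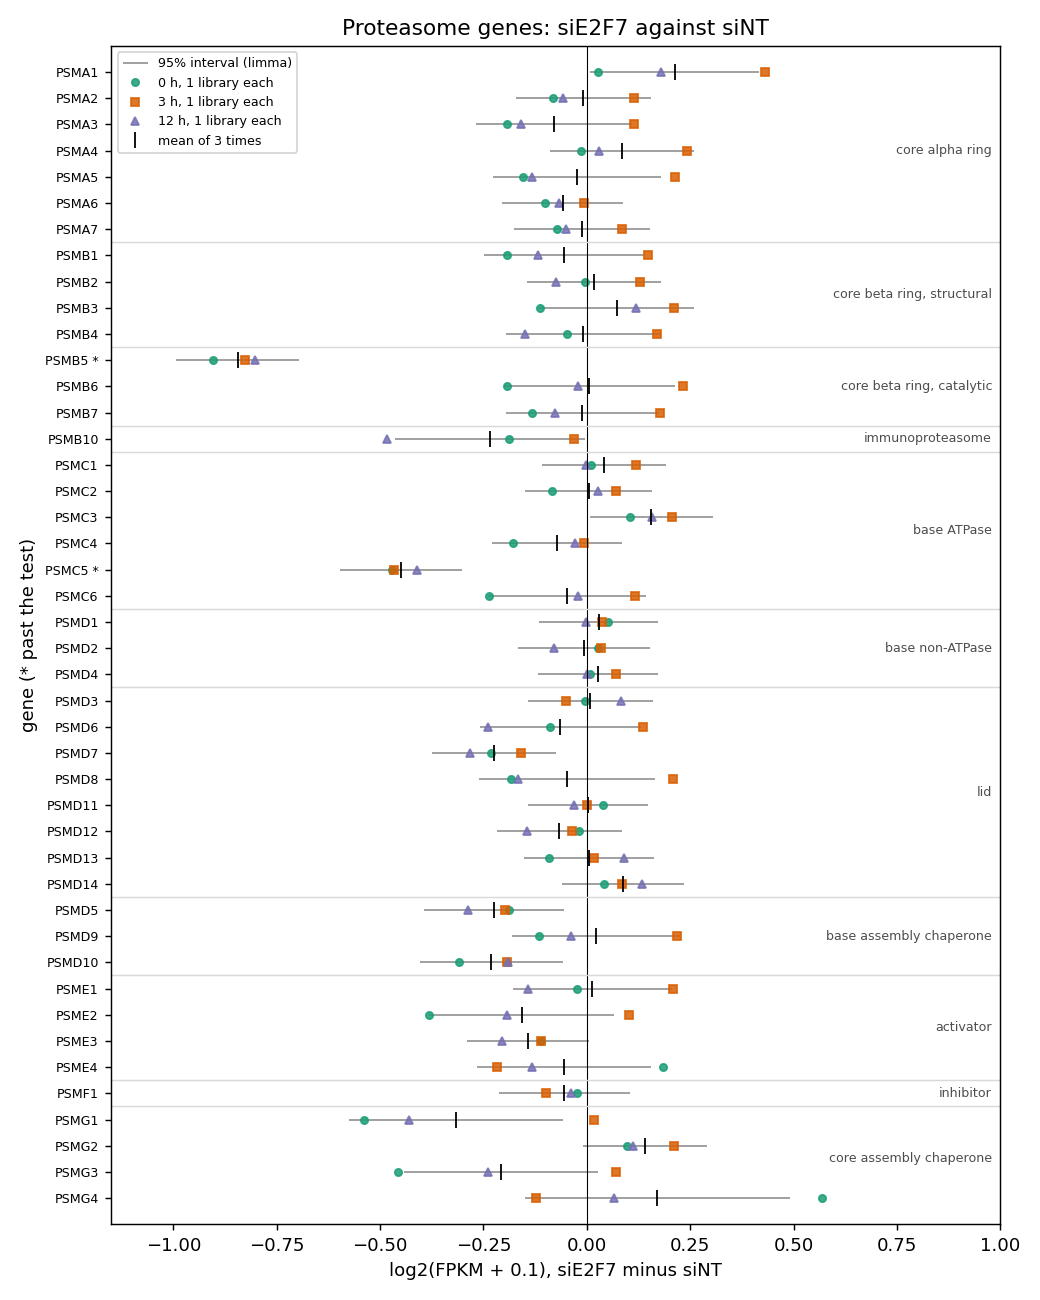
Log2 ratio of siE2F7 over siNT for the 44 genes by subcomplex, with coloured symbols for the single times (1 library against 1), a black tick for the mean of the 3 times and a grey line for its 95% limma interval. PSMB5 (-0.84) and PSMC5 (-0.45), marked with a star, stand apart with all times close together, while 12 of 15 core genes lie right of zero at 3 h and 14 and 12 left of it at 0 and 12 h, a sign that over all members turned at 3 h with quantile normalization (median -0.01).

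At single times 1 library was set against 1, with no replicate. PSMB5 was the only member past 1.5-fold, lower at 0, 3 and 12 h, where 4.4%, 3.9% and 6.58% of all genes tested were lower by as much. Higher by over 1.5-fold were 0 members at each time, beside 2.7%, 3.9% and 5.07% of all genes. The smaller single-time differences are given with the genes above, the largest of them PSMG4 at 0 h (0.57), PSMG1 at 0 h (-0.54) and PSMB10 at 12 h (-0.48).

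The smaller ratios of the members had 1 sign at 3 h and the other at 0 and 12 h. At 0 h 33 of 44 members were below their siNT value and at 12 h 34 were, beside 55.5% and 55.9% of all genes. At 3 h 30 of 44 were above it, beside 50.1% of all genes. The median log2 ratios were -0.09, 0.08 and -0.07 at 0, 3 and 12 h, and among the 15 core genes -0.11, 0.15 and -0.07. PSMB6, PSMA5 and PSMD8 are examples, at 0.23, 0.21 and 0.21 at 3 h and -0.19, -0.15 and -0.18 at 0 h. With quantile normalization the count at 3 h was 21 above and 23 below and the median -0.01, while 27 and 30 members were below at 0 and 12 h. With each library centred on its median, 31 were above at 3 h (median 0.09), and 31 and 27 were below at 0 and 12 h. The direction at 3 h thus depends on which scaling is used.

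Levels between times are given without a test, because each time had its own table and whether these were scaled together is not known. In siNT, 40 of 44 members were lower at 3 h than at 0 h, beside 61.3% of all genes, with a median log2 difference of -0.22 (-0.10 over all genes). From 3 h to 12 h, 40 of 44 were higher, beside 55.4% of all genes, with a median of 0.14 (0.04 over all genes). With quantile normalization these became 36 of 44 lower with a median of -0.14 and 29 of 44 higher with a median of 0.06. In the siNT values as deposited, all 15 core genes and all 6 ATPase genes were lower at 3 h and higher again at 12 h. The complexes compared further below moved alike in siNT. From 0 to 3 h, 8 of 9 COP9 signalosome, 11 of 13 eIF3 and 7 of 8 cytosolic chaperonin genes were lower, with medians of -0.12, -0.11 and -0.18. From 3 to 12 h only 1, 2 and 1 of them were lower, with medians of 0.13, 0.12 and 0.07. In siE2F7, 6, 9 and 7 of them were lower from 0 to 3 h, with medians of -0.17, -0.08 and -0.11. From 3 to 12 h in siE2F7, 3, 6 and 7 were lower, with medians of 0.06, 0.02 and -0.05. In siE2F7 the medians of the proteasome genes were -0.04 from 0 to 3 h and -0.00 from 3 to 12 h, with 26 and 23 of 44 lower, beside 57.2% and 50.8% of all genes. The siE2F7 median from 0 to 3 h was 0.01 with each library centred on its median and -0.10, with 31 of 44 lower, with quantile normalization, so how far the arms differ depends on the scaling. The siNT library of 3 h had the lowest FPKM sum of the 6, and its part in the result was not tested.

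Some members departed from the rest between times. PSME4, a large activator of the nucleus, was at 24.9 FPKM in siNT at 0 h, 36.5 at 3 h and 28.9 at 12 h, a log2 difference of 0.55 from 0 to 3 h where 40 members were lower. In siE2F7 it was at 28.3, 31.4 and 26.4 FPKM. PSMD10 had the lowest value in siNT from 0 to 3 h, -0.60, and a value of -0.48 in siE2F7. In siE2F7 the lowest value from 0 to 3 h was that of PSMG4, the scarcest member, at -0.91, against -0.22 in siNT. The highest there was that of PSMG3, at 0.49, against -0.04 in siNT. PSMD9 was at its highest at 12 h in both arms, 0.33 above 0 h in siNT and 0.41 in siE2F7. From 0 to 12 h the median over the 44 genes was -0.07 in siNT and -0.06 in siE2F7, with 27 lower in each arm, beside 54.1% and 55.4% of all genes.

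**Figure D3:**
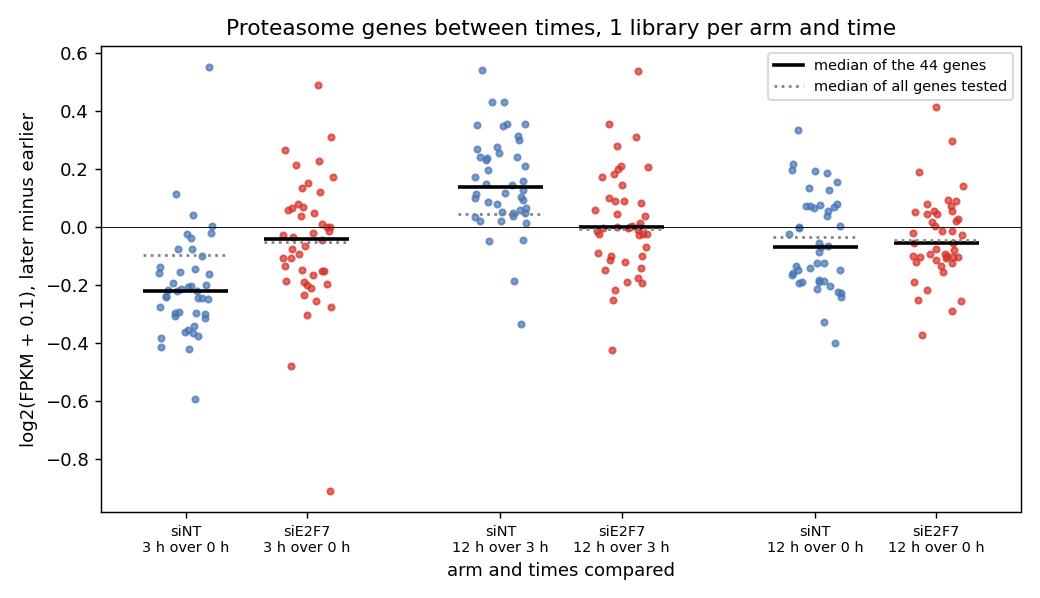
Log2 difference between times for each of the 44 genes, by arm, with 1 library per arm and time, black bars for their median and dotted bars for the median of all genes tested. In siNT the genes lie mostly below zero from 0 to 3 h (40 of 44) and above zero from 3 to 12 h (40 of 44), and in siE2F7 they lie on both sides.

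Most proteasome transcripts were abundant. In each library 43 of 44 members exceeded the median of all genes tested, which lay between 10.9 and 11.3 FPKM, and PSMG4 did not. PSMA7 was the most abundant member, at 306, 266 and 278 FPKM in siNT and 291, 282 and 269 FPKM in siE2F7, and PSMD2 overlapped it with 257 to 276 FPKM. Next in median level came PSMB4 (173 FPKM), PSMB1 (167) and PSMA1 (161), whose ranges over the libraries overlapped.

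Subunits that are equal in number in the finished complex differed in level. Among the 7 alpha genes the median over libraries ran from 59.4 FPKM for PSMA5 to 280 FPKM for PSMA7. Among the 6 ATPase genes it ran from 50.7 FPKM for PSMC2 to 141 FPKM for PSMC5, and among the 8 lid genes from 52.1 for PSMD13 to 119 for PSMD8. The 3 base chaperones were all low, at medians of 14.6 (PSMD5), 14.7 (PSMD10) and 16.2 FPKM (PSMD9), with ranges that overlapped. The core chaperones were spread widely, from 7.36 FPKM for PSMG4 to 104 for PSMG2. PSMB10, at a median of 14.3 FPKM, lay below all the constitutive core genes in every library.

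**Figure D4:**
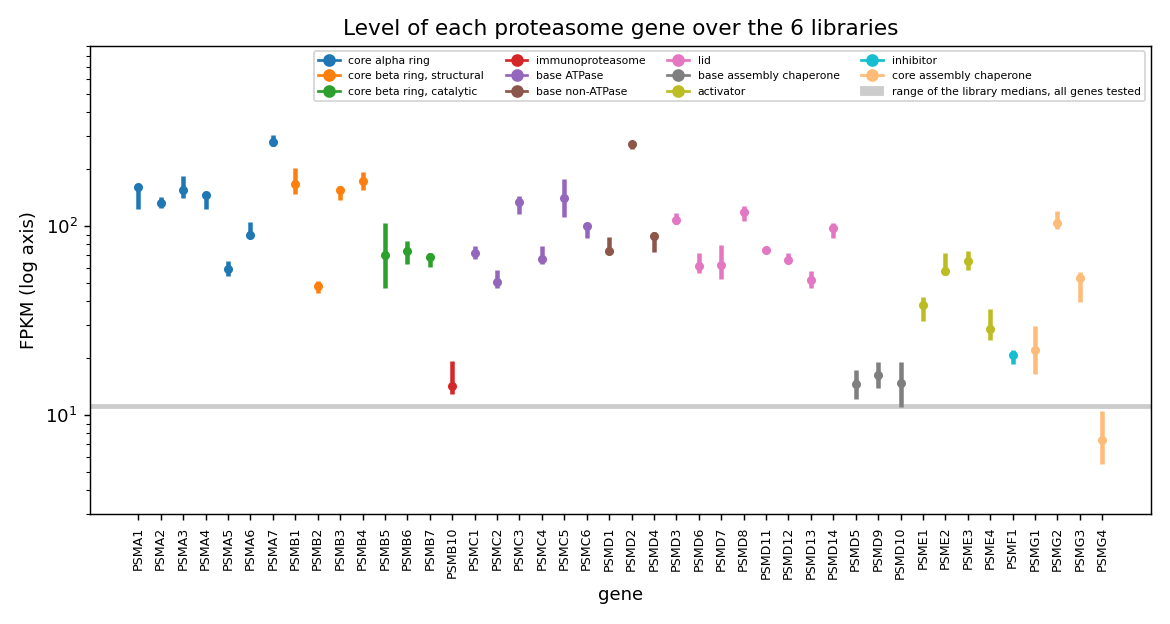
FPKM of each member on a log axis, coloured by subcomplex, with a point for the median and a bar from the lowest to the highest of the 6 libraries, and a grey band for the library medians of all genes tested (10.9 to 11.3 FPKM). PSMA7 and PSMD2 are highest, PSMG4 is lowest, and PSMB5 has the longest bar among the core genes of the constitutive form.

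Among 38 measured partners of the proteasome and of ubiquitin, of 43 listed, 1 fell and 1 rose, beside 7.13% and 6.76% of all genes, and the median log2 ratio was 0.01. USP14, a deubiquitinase that docks on the regulatory particle, was at 28.8, 24.5 and 24.1 FPKM in siNT and 20.6, 17.99 and 16.4 FPKM in siE2F7. It fell, with no overlap, by 0.49 ± 0.07 on the log2 scale (SE; limma, adjusted p = 0.005), and was called whichever time was left out (largest adjusted p = 0.029). FAF1, a cofactor of the segregase VCP, rose by 0.37 ± 0.07 (adjusted p = 0.015), a call that ended when 1 time was left out (largest adjusted p = 0.072). The next 4 genes were picked for their roles, after their values were seen. POMP, the maturation factor of the core, had a log2 ratio of -0.02, and UCHL5 and ADRM1, which dock on the regulatory particle, had 0.04 and 0.12. NFE2L1 was at 66.1, 63.6 and 60.3 FPKM in siNT and 67.3, 68.4 and 68.8 FPKM in siE2F7. It did not pass (0.11 ± 0.07, limma, adjusted p = 0.32). Its siE2F7 values all lay above its siNT values by a small margin, which held for 6.88% of all genes tested. PAAF1, TXNL1, UBQLN2 and UBE2R2 had log2 ratios of -0.29, -0.23, 0.23 and 0.21 and did not pass. All siE2F7 values of TXNL1 lay below all its siNT values, which held for 8.76% of all genes tested.

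Complexes that resemble the proteasome in build were set beside it. Of 9 subunits of the COP9 signalosome, a relative of the lid, 1 fell and 0 rose, COPS8 at -0.31 ± 0.08 (adjusted p = 0.044, up to 0.16 when 1 time was left out). Of 13 subunits of the translation factor eIF3, whose subunits share domains with the lid, 0 passed by limma. Of 8 subunits of the cytosolic chaperonin, a folding machine of stacked rings, 1 fell, TCP1 at -0.40 ± 0.07 (adjusted p = 0.0098, up to 0.057 when 1 time was left out). TCP1 was at 180, 161 and 155 FPKM in siNT and at 138, 128 and 111 FPKM in siE2F7. Unadjusted p-values under 0.05 were found for 4 of the 9, 0 of the 13 and 2 of the 8 subunits, beside 30.2% of all genes tested, of which 7.13% were called lower and 6.76% higher. The medians of the 3 complexes were 0.10, -0.05 and -0.07, beside -0.01 for the proteasome genes.

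RefSeq promoter windows, from 250 bases before to 50 after a start in GRCh38.p14, were matched to 38 of the 44 members by symbol. PSMA7, PSMB1, PSMB6, PSMB7, PSMD4 and PSMG3 had none. The antioxidant response element, searched as TGACNNNGC on both strands, was held by 14 of 38 members (36.8%), beside 19.5% of 8266 tested genes with a window and 16.1% of all 27305 symbols. In PSMC5 it lay in the second window, as GCTGTGTCA, from 57 to 49 bases before that start. CCAAT was held by 18 members (47.4%, beside 43.6% of tested genes) and the cell cycle element TTTGAA by 5 (13.2%, beside 13.4%). The E2F motif, searched as TTTGGCGC or TTTCCCGC, was held by 4 members (10.5%, beside 4.86% of tested genes), PSMA1, PSMB3, PSMD5 and PSMD9, whose log2 ratios were 0.21, 0.07, -0.22 and 0.02. Matches are letters only, genes with several windows had more chances of a match, and neither printed stretch held an E2F match.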

How the data were processed

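Total RNA of the 6 libraries was extracted and made into TruSeq libraries, per the labels' protocols. The authors deposited 1 table per library with FPKM per gene, and the 2 tables of a time list the same number of genes. CASAVA 1.8 is named in the submitters' processing notes, as are hg19 and GRCh37. The aligner, the annotation and any filter: not given in the sources used here. Tables were joined by gene identifier, and the 11886 of 13161 genes present in all 6 were tested with no further filter. A linear model of log2(FPKM + 0.1) on arm, blocked by time, was fitted with limma 3.58.1 (R 4.3.3), with a variance trend and Benjamini-Hochberg adjustment over all genes at 0.05. It had 2 residual and 5.4 prior degrees of freedom. The fit was also run on simulated libraries with known changes, which checks the code and not the calls given here. Any proteasome gene could be named, and of the other lists those past the test and up to 4 with the highest and 4 with the lowest ratio. Values of the 2 libraries of a single time, and differences between times, had no replicate and no test. The members and lists were chosen with earlier results of these data known. Alternatives were other pseudocounts, filters, moderation and scaling, no time block, and leaving out each time or the genes with overlapping loci.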

Additional observations from a re-analysis of the deposited data

How the results depend on the processing

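PSMB5 kept its direction under all 13 alternatives, and PSMC5 under all that tested it, with log2 ratios from -0.87 to -0.81 and from -0.47 to -0.43. Both stayed past the threshold in every alternative that kept the time block and tested the gene (largest adjusted p 0.018 and 0.036, limma without the variance trend), and PSMC5 is not among the genes tested without shared loci. With no time block, 0 of 44 members were called lower (adjusted p = 0.055 for PSMB5 and 0.125 for PSMC5). With quantile normalization 1 was called higher, PSMA1 (0.23, adjusted p = 0.035). In all, 3 members were called in an alternative only: PSMA1, PSMD7 and PSMG1. Of the 42 genes not called, 20 changed the sign of their log2 ratio under at least 1 alternative, 1 of them from a size of 0.1 or more. Over all genes, 1650 calls became 32 with no time block, 852 with no variance trend, 1095 without the libraries of 0 h and 763 without those of 3 h. FPKM tables without counts give no depth, so the precision of the scarce members PSMG4, PSMB10 and the base chaperones is known only from the spread between libraries.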

Other observations

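The nearest tested genes on either side that share no locus with the 2 members that fell did not fall with them. Beside PSMB5, C14orf93 (a gap of 15.7 kb) had a log2 ratio of 0.02 ± 0.14 and CDH24, a cadherin gene (a gap of 11.8 kb), of 0.31 ± 0.09 (SE; limma, adjusted p = 0.92 and 0.056). Beside the locus that PSMC5 shares with FTSJ3, DDX42, an RNA helicase gene, had 0.00 ± 0.07 (SE; limma, adjusted p = 0.97). On the other side of that locus SMARCD2, a chromatin remodelling gene, rose by 0.27 ± 0.07 (limma, adjusted p = 0.036). The call of SMARCD2 ended when 1 time was left out (largest adjusted p = 0.11).

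Other members that share a locus with a second entry in the tables, besides PSMC5, number 4 (PSMA3, PSMB7, PSMG2 and PSME1), and none of these passed the test.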
